A study of Homo sapiens with 18 samples.

Results

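The RNAs made from the mitochondrial genome were followed in HEK293T cells, a human embryonic kidney line. They were taken as every row of the deposited count table that lies on the mitochondrial chromosome, which gave 37 of 60675 human gene rows: 13 mRNAs, 22 tRNAs and 2 rRNAs. In the study, lines carried the m6A reader YTHDF3, YTHDF2 or YTHDF1 joined to an ADAR deaminase, and all cells received 1 µg/mL doxycycline for 24 h to induce the fusion and then 100 µg/mL cycloheximide for 10 min. Each line gave polysome RNA, from pooled gradient fractions with more than 2 ribosomes, and total RNA, making 6 groups of 3 libraries: YTHDF3-ADAR polysome and total RNA, YTHDF2-ADAR polysome and total RNA, and YTHDF1-ADAR polysome and total RNA. No library without a fusion was analysed here, so no line is a control for the others, and counts of ADARB1, an ADAR gene, differed between lines, with 1456 ± 326 CPM in YTHDF3-ADAR, 38.9 ± 1.55 in YTHDF2-ADAR and 247 ± 17.7 in YTHDF1-ADAR total RNA (SD, n = 3). The gene of each reader was highest in the total RNA of its own line. The labels do not say whether a line was 1 clone or whether its 3 libraries came from separate cultures, so p-values measure the spread between libraries that may be technical.

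Mitochondrial DNA is transcribed inside the organelle from both strands into long precursors. Excision of the tRNAs that lie between the genes frees most mRNAs and both rRNAs. The mRNAs code for subunits of respiratory complexes I, III and IV and of the ATP synthase, complex V, and they are translated by mitochondrial ribosomes built on MT-RNR1 (small subunit) and MT-RNR2 (large subunit). These ribosomes are separate from the cytosolic ribosomes that load nuclear transcripts, and cycloheximide acts on the cytosolic ones. MT-ND6 is the only mRNA on the strand opposite to the other mRNAs. The YTHDF proteins act in the cytosol, where they bind m6A in nuclear-encoded mRNAs.

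Libraries held between 42.7e6 and 67.5e6 counts, and all 37 rows were among the 26804 that passed the filter on low counts. PAX2 and LHX1, which HEK293 cells express, were detected in every library, and ALB, PTPRC and HBB, markers of liver, blood and red cells, stayed at or below 0.53 CPM. Levels below are normalised CPM (counts scaled to a common effective library size), and fold changes compare shares of libraries, not amounts of RNA. The counts behaved as if strands were not separated and a read over 2 rows was counted for each. Any count at all was found in 266 of 266 rows lying wholly inside an opposite-strand exon, against 196 of 197 inside a same-strand exon, which is a weak bar. Count density over that of the enclosing row had medians of 1.57 and 1.23 and lower quartiles of 0.66 and 0.46. RNA of either strand is therefore taken to add to a row, and the tRNA rows, 59 to 75 bases long, also hold reads that run into them from a neighbour. YTHDF3-ADAR replicates differed among themselves. Total RNA replicate 1 lay apart from replicates 2 and 3 in its mitochondrial mRNAs and tRNAs, and polysome replicate 3 from replicates 1 and 2 in its rRNAs, while polysome replicate 2 had the lowest mRNAs. Over all tested rows the polysome library farthest from its fellows was replicate 1, where chi-square divided by its degrees of freedom was 122 and 118 against replicates 2 and 3, beside 39.1 between those. In total RNA, replicate 1 stood apart in every line. The largest values were those of YTHDF1-ADAR cells, at 153 and 197, beside 26.3 between replicates 2 and 3. YTHDF3-ADAR total RNA had 135 and 131, beside 16.0, and YTHDF2-ADAR total RNA 70.6 and 52.3, beside 6.66. Counts are also given without YTHDF3-ADAR total RNA replicate 1 and polysome replicate 3. These were picked for their values over these very rows, so such counts describe the remaining libraries and carry no weight as tests.

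Mitochondrial RNAs took a smaller share of polysome RNA than of total RNA in each line. They made up 0.536%, 0.294% and 0.962% of counts in YTHDF3-ADAR polysome libraries, against 2.35%, 1.98% and 1.98% in the total RNA of that line. In YTHDF2-ADAR cells the shares were 1.10%, 0.874% and 0.888% on polysomes, against 5.15%, 4.61% and 4.79% in total RNA. In YTHDF1-ADAR cells they were 0.949%, 0.919% and 1.13% on polysomes, against 6.22%, 4.32% and 5.41% in total RNA. Polysome and total libraries did not overlap in any line. The make-up differed between fractions as well. On polysomes the mRNA rows held most mitochondrial counts, with 0.446% ± 0.241 of the library in YTHDF3-ADAR, 0.756% ± 0.105 in YTHDF2-ADAR and 0.793% ± 0.0885 in YTHDF1-ADAR cells (mean ± SD, n = 3). The rRNA rows held 0.105% ± 0.0993, 0.110% ± 0.00987 and 0.116% ± 0.0250 there. In total RNA, rRNA rows stood at 0.340% ± 0.0778 in YTHDF3-ADAR cells and beside the mRNA rows in the other lines, at 2.29% ± 0.304 in YTHDF2-ADAR and 2.70% ± 0.805 in YTHDF1-ADAR cells. The 22 tRNA rows together never exceeded 0.264% of a library.

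**Figure D1:**
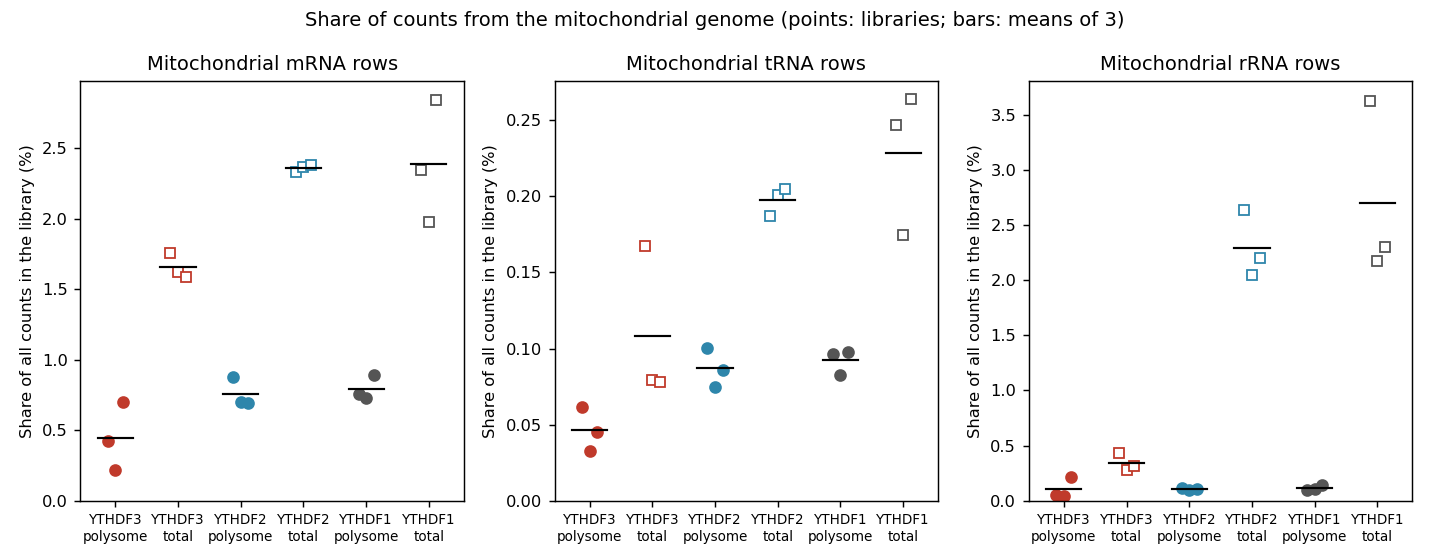
Share of all counts in each library (%, y axis) held by mitochondrial mRNA, tRNA and rRNA rows in 6 groups of 3 libraries; filled circles are polysome RNA, open squares total RNA, and bars the means of 3. Every polysome library lies below every total RNA library of its line, and the rRNA share of YTHDF3-ADAR total RNA, at 0.340% on average, lies far below the 2.29% and 2.70% of the other lines.

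Levels of the mRNAs were compared per kb of row length. In total RNA of YTHDF1-ADAR cells the highest were MT-CO3, which codes for a subunit of cytochrome c oxidase, at 4011 ± 911 CPM per kb, and the overlapping pair MT-ATP6 and MT-ATP8, subunits of the ATP synthase, at 3774 ± 879 and 3436 ± 816 (SD, n = 3). MT-ND1 and MT-ND2, subunits of complex I, were lowest, at 1471 ± 276 and 1262 ± 275. The same pair was lowest in every other group. Most neighbours in this order lay within each other's SD, and the gap to MT-ND1 from the next mRNA above it, MT-ND3 at 2064 ± 512, was wider than either SD. On polysomes of YTHDF1-ADAR cells the order was another one: MT-CO1 led with 1187 ± 161 CPM per kb, followed by MT-ND5 with 964 ± 82.3 and MT-CO3 with 899.8 ± 197, while MT-ATP6 had 386 ± 66.2. MT-ND4, MT-ND4L and MT-ND3 of complex I followed with 666 ± 84.2, 682 ± 97.5 and 714 ± 90.8 there, against 2476 ± 399, 2233 ± 432 and 2064 ± 512 in total RNA. MT-CO2 of complex IV had 321 ± 50.3 on polysomes, against 2641 ± 476 in total RNA. YTHDF2-ADAR polysomes gave the same 3 at the top, MT-CO1 at 988 ± 226, MT-ND5 at 983 ± 124 and MT-CO3 at 891 ± 149. In YTHDF3-ADAR polysome libraries the spread was wide, and MT-CO1 had 415, 267 and 1326 CPM per kb in replicates 1 to 3.

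**Figure D2:**
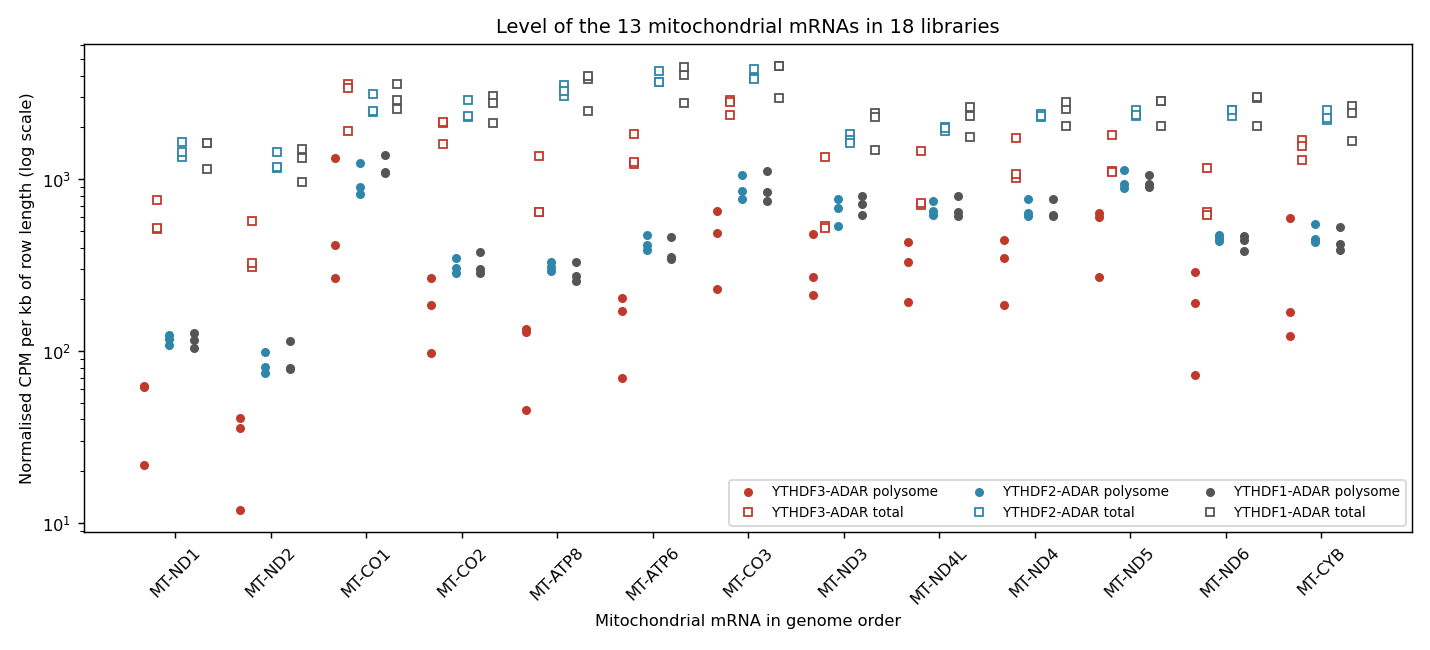
Normalised CPM per kb of row length (log scale, y axis) of the 13 mitochondrial mRNAs in genome order (x axis), 1 point per library, with filled circles for polysome RNA and open squares for total RNA. MT-ND1 and MT-ND2 are lowest in all groups, and the polysome points lie below the total RNA points of the same line for each mRNA.

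Each of the 13 mRNAs was lower on polysomes than in total RNA in each line. MT-ND1, a core subunit of complex I, had 58.8, 20.6 and 60.0 CPM in YTHDF3-ADAR polysome libraries, against 719, 491 and 495 in total RNA. It had 118, 103 and 112 CPM on YTHDF2-ADAR polysomes, against 1573, 1291 and 1372 in total RNA. It had 111, 99.1 and 121 CPM on YTHDF1-ADAR polysomes, against 1561, 1102 and 1556 in total RNA. The fractions were far apart for this mRNA in every library, with log2 fold changes of -3.61 ± 0.31, -3.67 ± 0.31 and -3.67 ± 0.31 (± SE; edgeR's quasi-likelihood F test with Benjamini-Hochberg adjustment, adjusted p = 2.18e-06, 1.98e-06 and 1.63e-06). MT-CO1, the catalytic core of complex IV, fell least of the mRNAs in YTHDF1-ADAR cells, with 1691, 1683 and 2117 CPM on polysomes, against 5549.7, 3960.4 and 4480.2 in total RNA. In YTHDF2-ADAR cells it had 1917, 1397 and 1256 CPM on polysomes, against 4836, 3804 and 3824 in total RNA. In YTHDF3-ADAR cells it had 639.6, 411 and 2044 CPM on polysomes, against 2933, 5478 and 5198 in total RNA. No library of MT-CO1 overlapped between fractions, although the polysome libraries of YTHDF3-ADAR cells spread widely. Its log2 fold changes were -2.14 ± 0.43, -1.45 ± 0.42 and -1.35 ± 0.42 in YTHDF3-ADAR, YTHDF2-ADAR and YTHDF1-ADAR cells (edgeR adjusted p = 0.00292, 0.0275 and 0.0311).

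By edgeR at an adjusted p under 0.05, 35 of 37 rows fell on polysomes of YTHDF3-ADAR cells, where 12.1% of the 26804 tested rows did. In YTHDF2-ADAR cells 32 of 37 were lower, against 9.04% of tested rows, and in YTHDF1-ADAR cells 35 of 37, against 11.9%. No mitochondrial row was called higher in a line, where 8.01%, 6.71% and 9.26% of tested rows were in YTHDF3-ADAR, YTHDF2-ADAR and YTHDF1-ADAR cells. All 37 were below 0 in each line and in all 9 pairs of same-numbered libraries, although the fractions of YTHDF3-ADAR cells overlapped for MT-TG, MT-TR, MT-TH, MT-TS2 and MT-TV. The 13 mRNAs had median log2 fold changes of -2.36, -2.30 and -2.34 in the same order of lines, beside medians of -0.05, 0.03 and 0.03 over all tested rows. Rows not called were MT-TG and MT-TR in all lines and MT-TD, MT-TH and MT-TS2 in YTHDF2-ADAR cells, all tRNA rows. With the replicate number as a block, each of the 37 was called lower in each line. Of tested rows, 20.1%, 15% and 18% were in YTHDF3-ADAR, YTHDF2-ADAR and YTHDF1-ADAR cells. The labels do not state this pairing. Fitting only the 6 libraries of YTHDF3-ADAR cells gave 13 called rows. Without total RNA replicate 1 and polysome replicate 3 of that line the number was 29. The share of all tested rows called in these fits is not given here, so fewer calls over all rows cannot be told apart.

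Falls followed the complexes only loosely. Complex V had the deepest median, since MT-ATP8 changed by -3.10, -3.40 and -3.58 and MT-ATP6 by -3.29, -3.18 and -3.29 (log2, YTHDF3-ADAR, YTHDF2-ADAR and YTHDF1-ADAR cells). These rows share 46 bases, so a part of their reads is the same. Complex IV spanned MT-CO2, at -3.42, -3.01 and -3.04, and MT-CO3, at -2.56, -2.17 and -2.16, besides MT-CO1. MT-CYB, the only mitochondrial subunit of complex III, stood at -2.36, -2.30 and -2.34. Complex I was the most uneven: MT-ND2 fell by the most of any mRNA, with -3.77, -3.89 and -3.79, and MT-ND5 and MT-ND3 by less than most, with -1.41, -1.29 and -1.42 for MT-ND5 and -1.33, -1.38 and -1.53 for MT-ND3. As shares of all mitochondrial mRNA counts, complex V took 4.50% ± 0.161 on YTHDF1-ADAR polysomes and 11.2% ± 0.818 in total RNA, and complex I took 49.8% ± 1.34 on polysomes and 46.8% ± 1.36 in total RNA (SD, n = 3). The 9 neighbouring rows from MT-TG to MT-ND5, between positions 9991 and 14148 of the mitochondrial chromosome (MT, GRCh38), a stretch chosen after its values were seen, had median log2 fold changes of -1.12, -0.93 and -1.21, beside -2.48, -2.82 and -2.91 for the other 28 rows. MT-ND5 had 1086, 491 and 1152 CPM on YTHDF3-ADAR polysomes, against 3253, 2027 and 1989 in total RNA, while MT-ND2 had 37.3, 12.4 and 42.4 on the same polysomes, against 597, 322 and 339 in total RNA. Neither mRNA overlapped between fractions. Within that stretch the mRNAs MT-ND3, MT-ND4L, MT-ND4 and MT-ND5 had medians of -1.51, -1.47 and -1.62, beside -3.10, -3.01 and -3.04 for the other 9 mRNAs.

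**Figure D3:**
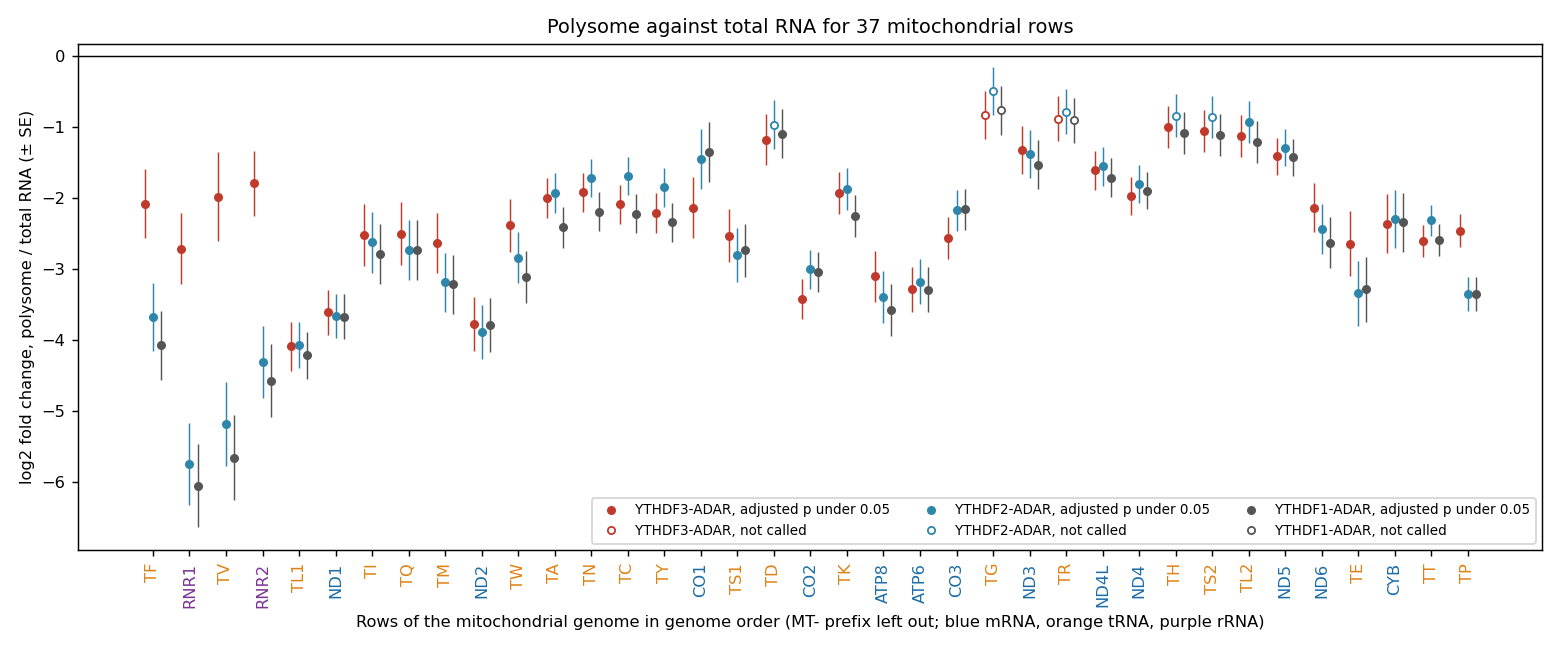
Log2 fold change of polysome over total RNA (y axis, ± SE from the edgeR fit) for 37 mitochondrial rows in genome order (x axis); red, blue and grey are YTHDF3-ADAR, YTHDF2-ADAR and YTHDF1-ADAR cells, and open points missed an adjusted p of 0.05. All points lie below 0, the rows from MT-TG to MT-ND5 have medians of -1.12, -0.93 and -1.21, and YTHDF3-ADAR cells lie well above the other lines at MT-TF, MT-RNR1, MT-TV and MT-RNR2.

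MT-RNR1, the small rRNA, had the lowest log2 fold change of the 37 rows in YTHDF2-ADAR and YTHDF1-ADAR cells, and both rRNA rows had shallower falls in YTHDF3-ADAR cells. MT-RNR1 (MT, positions 648 to 1601) had 87.8, 60.6 and 337 CPM on YTHDF3-ADAR polysomes, against 1354, 853 and 981 in total RNA. It had 217, 177 and 249 CPM on YTHDF2-ADAR polysomes, against 14594, 9201 and 10784 in total RNA. It had 163, 195 and 267 CPM on YTHDF1-ADAR polysomes, against 20754, 9836 and 10989.6 in total RNA. On polysomes the YTHDF3-ADAR libraries spanned those of the other lines, whereas its total RNA libraries all lay far below theirs. The log2 fold changes of MT-RNR1 were -2.72 ± 0.50, -5.75 ± 0.58 and -6.06 ± 0.58 (edgeR adjusted p = 0.00161, 1.16e-05 and 6.18e-06), and those of MT-RNR2 -1.79 ± 0.46, -4.31 ± 0.51 and -4.57 ± 0.51 (adjusted p = 0.012, 5e-05 and 2.57e-05). The balance of both rRNAs shifted as well. MT-RNR2 held 4.11, 4.89 and 4.28 counts for each count of MT-RNR1 on YTHDF3-ADAR polysomes, against 2.13, 2.47 and 2.33 in total RNA. The ratio was 4.06, 4.02 and 3.11 on YTHDF2-ADAR polysomes, against 1.34, 1.48 and 1.30 in total RNA, and 4.11, 4.02 and 3.92 on YTHDF1-ADAR polysomes, against 1.42, 1.54 and 1.35 in total RNA. No polysome library overlapped a total RNA library in this ratio.

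Removal of rRNA preceded sequencing, and rRNA made in the nucleus was followed beside these rows. The 53 nuclear rRNA rows took 0.0623%, 0.0435% and 0.210% of counts in YTHDF3-ADAR total RNA, against 1.54%, 0.926% and 0.832% in YTHDF2-ADAR and 2.40%, 1.25% and 0.773% in YTHDF1-ADAR total RNA. On polysomes they took 0.0809%, 0.0411% and 0.108% in YTHDF3-ADAR, 0.0510%, 0.0562% and 0.0948% in YTHDF2-ADAR, and 0.0861%, 0.202% and 0.215% in YTHDF1-ADAR libraries. Between lines, YTHDF3-ADAR total RNA was lowest in nuclear as in mitochondrial rRNA, and in each of the other lines replicate 1 of total RNA was the highest in both. Within YTHDF3-ADAR cells the values ran apart: the nuclear share overlapped between fractions whereas MT-RNR1 did not, and in total RNA replicate 3 was highest for nuclear rRNA but replicate 1 for MT-RNR1. The part of rRNA removal in the rRNA results was not tested.

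Of the 22 tRNA rows, 20, 17 and 20 were called lower on polysomes in YTHDF3-ADAR, YTHDF2-ADAR and YTHDF1-ADAR cells, with medians of -2.09, -2.12 and -2.50 on the log2 scale. MT-TL1, the tRNA for leucine between MT-RNR2 and MT-ND1, had 3.35, 1.09 and 2.41 CPM on YTHDF3-ADAR polysomes, against 49.6, 31.8 and 34.0 in total RNA. Its log2 fold changes were -4.09 ± 0.34, -4.07 ± 0.33 and -4.22 ± 0.33 (edgeR adjusted p = 1.46e-06, 1.2e-06 and 7.23e-07). MT-TV, the tRNA for valine between the rRNAs, fell most in YTHDF1-ADAR cells, with 0.523, 0.448 and 0.697 CPM on polysomes, against 39.2, 17.7 and 27.1 in total RNA. In YTHDF2-ADAR cells it had 0.491, 0.620 and 0.720 CPM on polysomes, against 24.0, 17.0 and 25.8 in total RNA. In YTHDF3-ADAR cells it had 0.650, 0.107 and 0.381 CPM on polysomes, against 3.08, 0.707 and 0.496 in total RNA, where 1 polysome library overlapped 1 total RNA library. Its log2 fold changes were -1.98 ± 0.62, -5.19 ± 0.59 and -5.66 ± 0.60 (edgeR adjusted p = 0.0342, 3.47e-05 and 1.44e-05), and its lowest library, YTHDF3-ADAR polysome replicate 2, rested on 7 counts. MT-TG, the tRNA for glycine, lay at the other end, at 166, 132 and 177 CPM on YTHDF1-ADAR polysomes, against 318, 185 and 305 in total RNA. With -0.83 ± 0.34, -0.49 ± 0.34 and -0.77 ± 0.34 it missed the threshold in every line (edgeR adjusted p = 0.0964, 0.37 and 0.121). With the replicate block each of the 22 tRNA rows was called. The tRNA rows with the highest mean CPM over all 18 libraries were MT-TG, MT-TS2, MT-TL2, MT-TS1 and MT-TH, but their order differed between fractions. Per kb, MT-TG had 2329 ± 349 and MT-TS1 739.9 ± 109 CPM on YTHDF1-ADAR polysomes, against 3962 ± 1080 and 4934 ± 1469 in total RNA (SD, n = 3). MT-TS2 and MT-TL2, the tRNAs for serine and leucine side by side before MT-ND5, changed by -1.05 ± 0.30, -0.86 ± 0.30 and -1.11 ± 0.30 and by -1.12 ± 0.30, -0.93 ± 0.30 and -1.21 ± 0.30. MT-TH, the tRNA for histidine, changed by -0.998 ± 0.30, -0.84 ± 0.30 and -1.08 ± 0.30, and MT-TS1, the other tRNA for serine, by -2.53 ± 0.38, -2.80 ± 0.38 and -2.74 ± 0.38.

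The tRNA rows were set beside the long RNAs that flank them, and the match was partial. Across the 22 tRNA rows, the log2 fold change correlated with the mean of the flanking mRNA or rRNA rows at r = 0.58 in YTHDF3-ADAR, 0.78 in YTHDF2-ADAR and 0.82 in YTHDF1-ADAR cells. This is across rows of the same libraries that share reads at their borders, so it describes the rows and carries no test. Single rows lay far from their flanks, as MT-TD did in YTHDF3-ADAR cells, at -1.18 beside a flank mean of -2.78, and MT-TI, at -2.52 beside -3.69. Over the 18 libraries, the long row with the highest correlation to a tRNA row was a neighbour for 6 of 22. These highest correlations ran from 0.951 to 0.994 and include the differences between the 6 groups, so which row ranks first says little. MT-TF and MT-TV both matched MT-RNR1 best, and MT-TH, MT-TS2 and MT-TL2, which lie side by side between MT-ND4 and MT-ND5, all matched MT-ND3. MT-TS1 is encoded opposite to MT-CO1 just after the end of that row, where the MT-CO1 transcript is known to run on. Its level was 4934 ± 1469 CPM per kb in YTHDF1-ADAR total RNA, beside 3024 ± 526 for MT-CO1 and 392 ± 127 for the next tRNA row, MT-TD. In YTHDF3-ADAR total RNA MT-TS1 had 1346 ± 141 and MT-CO1 2942 ± 905 CPM per kb. On polysomes of YTHDF1-ADAR cells MT-TS1 changed by -2.74 and MT-CO1 by -1.35 (log2). The long row that MT-TS1 matched best was MT-ND6 (r = 0.981). Whether its counts come from MT-CO1 transcripts that run on was not tested.

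By strand, 9 rows are annotated on the minus strand, MT-ND6 and 8 tRNAs, and 28 on the plus strand. MT-ND6, a subunit of complex I, had 202, 233 and 244 CPM on YTHDF1-ADAR polysomes, against 1554, 1064 and 1582 in total RNA, and log2 fold changes of -2.13 ± 0.35, -2.44 ± 0.35 and -2.63 ± 0.36 (edgeR adjusted p = 0.000705, 0.000311 and 0.000132). These lie within the range of the 12 plus-strand mRNAs, whose medians were -2.46, -2.23 and -2.25. All 8 minus-strand tRNA rows were called lower in each line, with medians of -2.34, -2.33 and -2.57. Of 14 plus-strand tRNA rows 12, 9 and 12 were, with medians of -1.95, -2.09 and -2.42. The 5 tRNA rows of the stretch from MT-TG to MT-ND5, chosen after its values were seen, are all on the plus strand. Of these 3, 1 and 3 were called, beside 17, 16 and 17 of the 17 tRNA rows outside it. Fewer calls inside the stretch follow from that choice, and strand and place in the genome were not tested against each other. As the counts behaved as if strands were not separated, antisense reads of the other strand's precursor and those of the annotated RNA cannot be told apart in these rows.

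Whether the polysome change itself differed between lines was tested as a difference of differences. No mitochondrial row was called between YTHDF3-ADAR and YTHDF1-ADAR cells, between YTHDF3-ADAR and YTHDF2-ADAR cells, or between YTHDF2-ADAR and YTHDF1-ADAR cells by edgeR, and of all tested rows 0%, 0% and 0% were. At an unadjusted p under 0.05 the counts were 5, 5 and 0 of 37, and 877, 801 and 166 of 26804 tested rows. The 5 rows were the same in both, namely MT-RNR1, MT-RNR2, MT-TF and MT-TV, which neighbour each other, and MT-TP, the tRNA for proline. For MT-RNR1 the difference was 3.34 ± 0.68 for YTHDF3-ADAR minus YTHDF1-ADAR cells and 3.03 ± 0.68 for YTHDF3-ADAR minus YTHDF2-ADAR cells (log2 ± SE; edgeR unadjusted p = 0.000158 and 0.000384). Over all tested rows these gave an edgeR adjusted p of 1 in both. The differences of MT-RNR2 were 2.78 ± 0.64 and 2.52 ± 0.64. Those of the 13 mRNAs ran from -0.79 to 0.50 and from -0.69 to 0.30, with MT-CO1 at the low end. DESeq2 called 0, 1 and 0 rows, the 1 being MT-RNR1 between YTHDF3-ADAR and YTHDF2-ADAR cells, at 3.08 ± 0.76 (adjusted p = 0.0266). Without YTHDF3-ADAR total RNA replicate 1 and polysome replicate 3, the difference of MT-CO1 was -1.94 against YTHDF1-ADAR and -1.84 against YTHDF2-ADAR cells, and that of MT-TV 4.95 and 4.48; as these libraries were picked for such values, no test is given. Without YTHDF3-ADAR total RNA replicate 1 alone the difference of MT-TV was 4.99 against YTHDF1-ADAR cells. No test is given for it either, as that library is one of those picked. MT-TV had only 0.496 to 3.08 CPM in YTHDF3-ADAR total RNA. The nuclear rRNA share was also lower in YTHDF3-ADAR total RNA than in the other lines, and its part in these differences was not tested.

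Total RNA held less of most mitochondrial transcripts in YTHDF3-ADAR cells than in the other lines. Against YTHDF1-ADAR cells, 33 of 37 rows were lower by edgeR, where 6.52% of tested rows were, and 0 were higher, where 11.6% of tested rows were. Against YTHDF2-ADAR cells, 25 were lower and 0 higher, where 7.57% and 15.2% of tested rows were. The medians over the 37 rows were -1.26 and -1.03 on the log2 scale, beside 0.02 and 0.02 over all tested rows. In bulk RNA, a lower share in every cell and one in only a part of the cells cannot be told apart. Amounts of RNA were not measured. The lines share no culture that could serve as a control, and construct, line and library batch cannot be told apart either.

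The complexes differed in how many of their mRNAs were called. All 7 complex I mRNAs were lower in YTHDF3-ADAR total RNA, with medians of -1.31 against YTHDF1-ADAR and -1.10 against YTHDF2-ADAR cells, and so were both complex V mRNAs. MT-ATP8 had 284, 133 and 133 CPM in YTHDF3-ADAR total RNA, against 727, 630.0 and 673 in YTHDF2-ADAR and 788, 518 and 828 in YTHDF1-ADAR total RNA, without overlap. Its log2 fold changes were -1.96 ± 0.34 against YTHDF1-ADAR and -1.89 ± 0.34 against YTHDF2-ADAR cells (edgeR adjusted p = 0.00174 and 0.00166). None of the 3 complex IV mRNAs and not MT-CYB of complex III was called. MT-CO1 had 2933, 5478 and 5198 CPM in YTHDF3-ADAR, against 4836, 3804 and 3824 in YTHDF2-ADAR and 5549.7, 3960.4 and 4480.2 in YTHDF1-ADAR total RNA, with groups that overlapped, and differed by -0.04 ± 0.41 and 0.13 ± 0.41 (edgeR adjusted p = 0.956 and 0.841). MT-CYB had 1472, 1924 and 1779 CPM in YTHDF3-ADAR total RNA, against 2863, 2507 and 2585 in YTHDF2-ADAR and 3033, 1913 and 2768 in YTHDF1-ADAR total RNA. The lowest YTHDF1-ADAR library lay just below the highest YTHDF3-ADAR one, and the differences were -0.58 ± 0.39 and -0.62 ± 0.40 (edgeR adjusted p = 0.321 and 0.262). Whether complexes differed from each other was not tested.

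Both rRNAs were far lower in YTHDF3-ADAR total RNA. MT-RNR1 differed by -3.71 ± 0.52 from YTHDF1-ADAR and by -3.44 ± 0.52 from YTHDF2-ADAR cells (edgeR adjusted p = 0.000386 and 0.000468), and MT-RNR2 by -3.03 ± 0.48 and -2.70 ± 0.47 (adjusted p = 0.000891 and 0.00132), beside the low nuclear rRNA share of the same libraries. Of the tRNA rows, 22 of 22 were lower against YTHDF1-ADAR cells and 14 of 22 against YTHDF2-ADAR cells. MT-TV and MT-TF, which flank MT-RNR1, differed most among them, by -4.28 ± 0.55 and -2.91 ± 0.45 against YTHDF1-ADAR cells (edgeR adjusted p = 0.000186 and 0.00085). MT-TE, the tRNA for glutamate on the minus strand between MT-ND6 and MT-CYB, had 69.2, 19.6 and 20.1 CPM in YTHDF3-ADAR, against 184, 186 and 186 in YTHDF2-ADAR and 185, 121 and 222 in YTHDF1-ADAR total RNA, and differed by -2.28 ± 0.44 and -2.35 ± 0.44. The counts changed when total RNA replicates of YTHDF3-ADAR cells were left out. Without replicate 2 or replicate 3 the count against YTHDF1-ADAR cells was 19 or 18, and against YTHDF2-ADAR cells 13 in either case, whereas without replicate 1 and polysome replicate 3 it was 33 and 34. A fit of the compared groups alone called 8 and 14. For these fits too the share of all tested rows called is not given, so fewer calls over all rows cannot be told apart.

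In total RNA, YTHDF2-ADAR cells were also set against YTHDF1-ADAR cells. No mitochondrial row was called by edgeR, where 1.83% of tested rows were in either direction, 2 of 37 had an unadjusted p under 0.05, and DESeq2 called 0. MT-RNR1 differed by -0.27 ± 0.47 (YTHDF2-ADAR over YTHDF1-ADAR) and the 13 mRNAs by -0.26 to 0.04. The largest differences were those of the neighbouring minus-strand tRNAs MT-TN and MT-TA, at -0.62 ± 0.26 and -0.61 ± 0.27 (edgeR adjusted p = 0.421 and 0.48).

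Polysome RNA showed lower mitochondrial levels in YTHDF3-ADAR cells too. Against YTHDF1-ADAR cells 29 of 37 rows were lower by edgeR and none higher, where 11.4% and 11.9% of tested rows were. Against YTHDF2-ADAR cells 25 were lower and none higher, where 11.5% and 13.6% of tested rows were. All 7 complex I mRNAs, both of complex V, and MT-CO2 and MT-CO3 of complex IV were lower in both comparisons. MT-ATP6 had 116, 47.3 and 139 CPM on YTHDF3-ADAR polysomes, against 324, 265 and 282 on YTHDF2-ADAR and 238, 235 and 315 on YTHDF1-ADAR polysomes, without overlap, and log2 fold changes of -1.38 ± 0.29 against YTHDF1-ADAR and -1.53 ± 0.30 against YTHDF2-ADAR cells (edgeR adjusted p = 0.00459 and 0.00256). MT-CO1 and MT-CYB were not called, nor were the rRNAs, with MT-RNR1 at -0.37 ± 0.47 and -0.41 ± 0.47. The median of both rRNAs was -0.31 and -0.29, and without replicate 3 it was -1.42 and -1.40. For all 4 rows YTHDF3-ADAR replicates 1 and 2 lay below every library of the other lines, and replicate 3 lay above them all for MT-CYB and both rRNAs and within their range for MT-CO1. For MT-CYB the YTHDF3-ADAR polysome libraries had 191, 139.9 and 677 CPM, against 624, 488 and 509 in YTHDF2-ADAR and 476, 440.2 and 605 in YTHDF1-ADAR libraries. The counts against YTHDF1-ADAR cells changed when single libraries were left out. They were 10 without YTHDF3-ADAR replicate 2, 19 without its replicate 3, and 17 and 13 without YTHDF1-ADAR replicates 1 and 3. Against YTHDF2-ADAR cells they were 10 without YTHDF3-ADAR replicate 2 and 13 without YTHDF2-ADAR replicate 1. Without polysome replicate 3 and total RNA replicate 1 of YTHDF3-ADAR cells together, 30 and 27 rows were called, and a fit of the compared groups alone called 11 in each. Without the filter on low counts the numbers were 12 and 11. None of these alternative counts has the share of all tested rows beside it, so fewer calls over all rows cannot be told apart. No mitochondrial row was called between YTHDF2-ADAR and YTHDF1-ADAR polysomes by edgeR, where 2.35% of tested rows were called in either direction, 0 of 37 had an unadjusted p under 0.05, and DESeq2 called 0.

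Single YTHDF3-ADAR libraries followed distinct courses along the genome. Each was set against the mean of the 6 libraries of the other lines in the same fraction. Among the mRNAs, polysome replicates 1, 2 and 3 had medians of -0.90, -1.95 and -0.88 (log2), and total RNA replicates 1, 2 and 3 had -0.75, -1.51 and -1.50. Total RNA replicates 2 and 3 ran nearly on top of each other. They were low at the complex I and ATP synthase mRNAs and at or above the other lines at MT-CO1, whose values stand above. Replicate 1 was flatter along the genome. Shares of mitochondrial mRNA counts show the same split. Complex IV took 31.3%, 36.5% and 48.4% in YTHDF3-ADAR polysome libraries and 33.9%, 53.9% and 53.2% in total RNA, where replicate 1 lay inside the 31.1% to 34.4% of the other lines' total RNA. Complex I took 59.6%, 52.6% and 36.7% on YTHDF3-ADAR polysomes, against 48.8%, 29.2% and 30.2% in total RNA. The rRNAs of polysome replicate 3 had a median of 0.77, above the other lines, against -1.20 and -1.60 in replicates 1 and 2. In the other lines the complex I share ranged from 44.6% to 48.1% in total RNA.

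**Figure D4:**
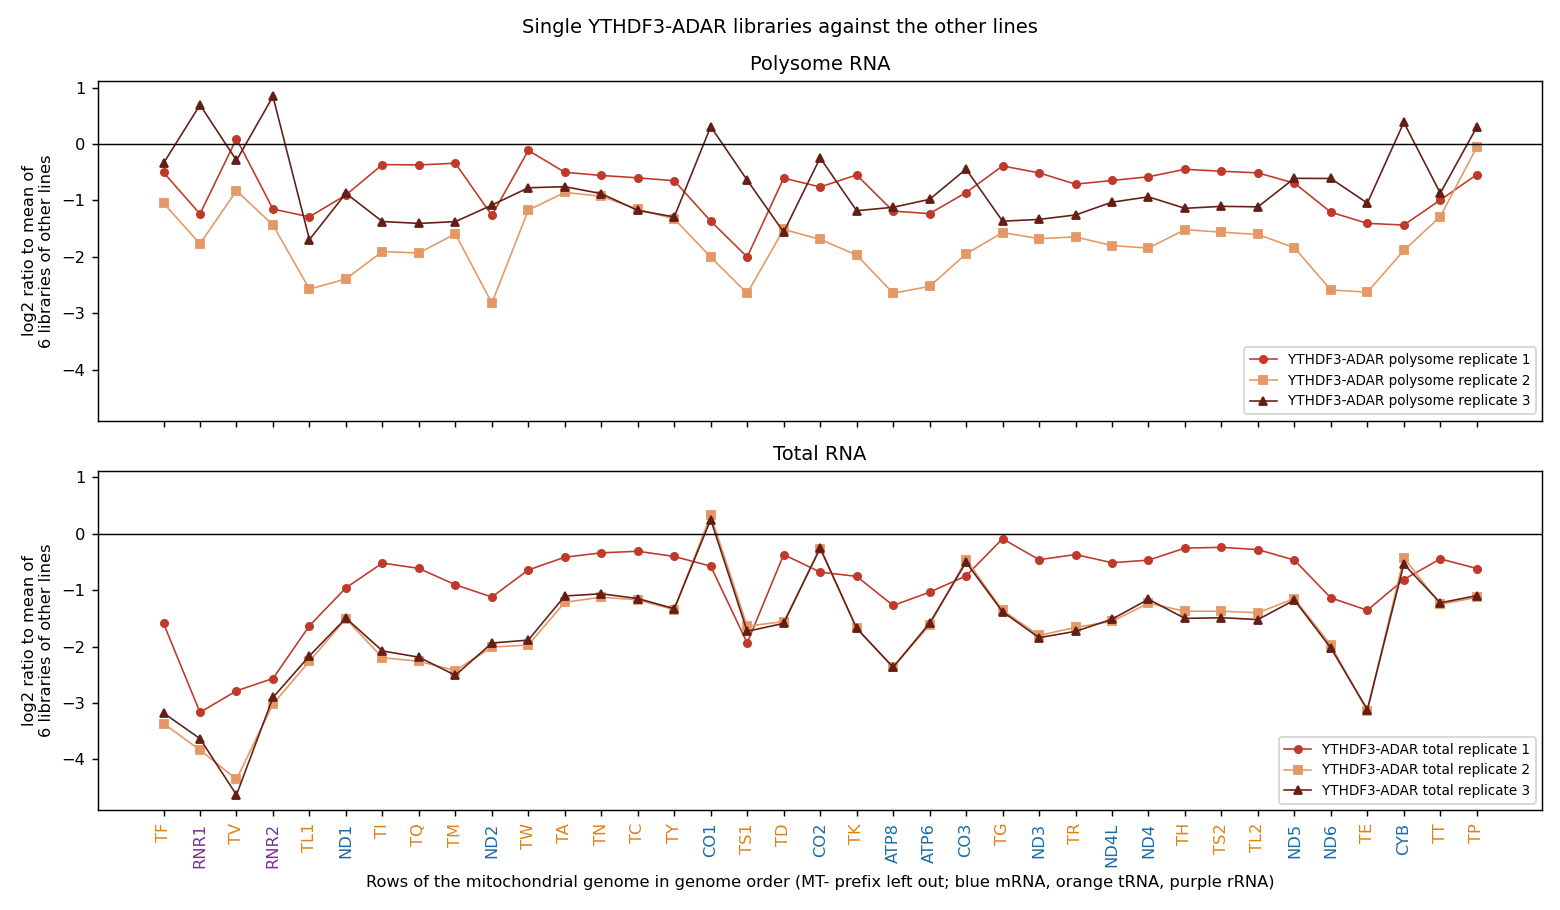
Log2 ratio of each YTHDF3-ADAR library to the mean of the 6 libraries of the other lines in the same fraction (y axis; log2 of CPM plus 0.5) for 37 mitochondrial rows in genome order (x axis), polysome RNA above and total RNA below. Total RNA replicates 2 and 3 coincide and peak at MT-CO1, MT-CO2, MT-CO3 and MT-CYB, replicate 1 is flatter, and polysome replicate 3 is the only polysome library above 0 at both rRNAs.

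Nuclear genes that make, process, translate and degrade these RNAs were followed as a list of 46, all of which passed the filter. On polysomes 13, 6 and 10 were higher in YTHDF3-ADAR, YTHDF2-ADAR and YTHDF1-ADAR cells and 1 was lower in each, where 8.01%, 6.71% and 9.26% of tested rows were higher and 12.1%, 9.04% and 11.9% lower. With the replicate block 20, 18 and 21 were higher, where 13.6%, 15.5% and 18.7% of tested rows were. The medians were 0.24, 0.21 and 0.23 on the log2 scale, beside -0.05, 0.03 and 0.03 over all tested rows. Over tested protein-coding rows alone the medians were 0.05, 0.13 and 0.13, and the share of those called is not given here. Of the 46, the 4 with the highest mean level were TUFM, LRPPRC, TFAM and GTPBP3, and the others are named after their values were seen. TUFM, the mitochondrial elongation factor, changed by 0.19 ± 0.10, 0.34 ± 0.10 and 0.29 ± 0.10 and was called in YTHDF2-ADAR cells alone. LRPPRC, at 0.29 ± 0.33, -0.47 ± 0.33 and -0.67 ± 0.33, and GTPBP3, which modifies mitochondrial tRNAs, at 0.11 ± 0.15, 0.27 ± 0.15 and 0.16 ± 0.15, were not called. TFAM, which packages mitochondrial DNA and starts its transcription, rose by 0.76 ± 0.18, 0.59 ± 0.18 and 0.62 ± 0.18 (edgeR adjusted p = 0.00838, 0.0346 and 0.0231). MTIF2, the mitochondrial translation initiation factor, rose by 0.63 ± 0.12, 0.41 ± 0.12 and 0.44 ± 0.12, and SLIRP, which with LRPPRC keeps mitochondrial mRNAs stable, by 0.32 ± 0.11, 0.45 ± 0.11 and 0.45 ± 0.11. FASTK, the 1 gene that fell, changed by -0.51 ± 0.11, -0.52 ± 0.11 and -0.51 ± 0.11, and one of its forms is known to protect MT-ND6 RNA. In total RNA, 6 of the 46 were lower and 2 higher in YTHDF3-ADAR than in YTHDF1-ADAR cells, and 10 lower and 1 higher than in YTHDF2-ADAR cells. Of all tested rows 6.52% were lower and 11.6% higher against YTHDF1-ADAR, and 7.57% lower and 15.2% higher against YTHDF2-ADAR cells. SLIRP differed by -0.45 ± 0.11 and -0.48 ± 0.11 (edgeR adjusted p = 0.0112 and 0.00616). MTPAP, the poly(A) polymerase of mitochondria, differed by -0.34 ± 0.10 and -0.38 ± 0.10, and REXO2, an oligoribonuclease that clears short RNA there, by -0.52 ± 0.13 and -0.55 ± 0.13. TRIT1, which modifies tRNAs, was higher, by 0.33 ± 0.09 and 0.29 ± 0.09. On polysomes 8 were lower and 2 higher than in YTHDF1-ADAR cells, and 6 lower and 1 higher than in YTHDF2-ADAR cells. The counts of lower genes are near the 11.4% and 11.5% of all tested rows that were lower, and 11.9% and 13.6% were higher. MRRF, the mitochondrial ribosome recycling factor, differed by -0.59 ± 0.10 and -0.66 ± 0.10 (edgeR adjusted p = 0.000812 and 0.000367), and LRPPRC was higher by 1.18 ± 0.33 than in YTHDF1-ADAR cells (adjusted p = 0.019). None of the 46 was called between YTHDF2-ADAR and YTHDF1-ADAR cells, in either fraction.

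Copies of mitochondrial DNA in the nuclear genome can take reads from their parents. Of 417 rows named as such copies 52 were tested, and 14, 21 and 20 were lower and 0, 0 and 1 higher on polysomes in YTHDF3-ADAR, YTHDF2-ADAR and YTHDF1-ADAR cells, where 12.1%, 9.04% and 11.9% of all tested rows were lower and 8.01%, 6.71% and 9.26% higher. The largest was MTCO1P12, whose counts stood at 17.8%, 16.1% and 16.2% of those of MT-CO1 on YTHDF3-ADAR, YTHDF2-ADAR and YTHDF1-ADAR polysomes, against 16.5%, 16.1% and 14.9% in total RNA. It changed by -2.02 ± 0.44, -1.45 ± 0.43 and -1.23 ± 0.43 (log2 ± SE), close to its parent. MTND2P28 stood at 49.6%, 41.5% and 43.8% of MT-ND2 on polysomes, against 39.9%, 23.6% and 23.7% in total RNA. MTATP6P1 changed by -3.12 ± 0.40, -3.35 ± 0.40 and -3.38 ± 0.40, and MTRNR2L12, a copy of MT-RNR2, by -1.22 ± 0.41, -3.79 ± 0.44 and -3.92 ± 0.44. These 4 were the most abundant copies. Values of these near-identical rows are uncertain, since the sources used here do not say how reads that match several places were counted. Adding the copies to their parents left the number of called mitochondrial rows at 35, 32 and 35.

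The authors' deposited editing tables list 7042, 4547 and 6858 genes for YTHDF3-ADAR, YTHDF2-ADAR and YTHDF1-ADAR, and none of the 37 mitochondrial rows was among them. How sites were called is not stated, and whether a listed site was marked by the fusion was not tested. Nuclear copies of MT-RNR2 were listed, 3, 2 and 2 of them. MTRNR2L6, 1 site in each table, had deposited scores of 93.1%, 92.4% and 92.9% on polysomes, against 87.3%, 71.2% and 77.8% in total RNA, in the same order of lines. The authors' adjusted p-value for that change was 0.816, 4.56e-45 and 0.9. MTRNR2L12 had 27.8%, 12.9% and 10.5% on polysomes, against 11.8%, 1.91% and 2.26% in total RNA, with adjusted p-values of 0.689, 0.805 and 0.511 in the authors' deposited table. The authors' deposited comparison table, whose contrast is not named, held 36 of 37 mitochondrial rows as lower at an adjusted p under 0.05 and none as higher. The share of all its rows called is not given here, so this count has no yardstick. Its log2 fold changes differed by at most 0.00916 from those computed here for YTHDF1-ADAR polysomes against total RNA.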

How the data were processed

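RNA from 18 HEK293T libraries, 3 in each of 6 groups, was fractionated on sucrose gradients, depleted of rRNA and made into strand-directional libraries, per the labels' protocols. The deposited counts per gene row were made by the authors with STAR 2.7.7 and featureCounts 2.0.1 on GRCh38 (hg38), per the submitters' processing notes. Strand setting and annotation release: not given in the sources used here. Alongside, the authors' deposited comparison holds a mean normalised count (a signal), a log2 fold change and an adjusted p-value, from DESeq2, whose version these notes do not give. Their deposited editing tables hold a score in percent, a count of sites and an adjusted p-value per gene, with no account of how sites were called or replicates combined.

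Counts were fitted in 1 model of 18 libraries with edgeR 4.0.16 (R 4.3.3, limma 3.58.1; filterByExpr with a minimum count of 10, TMM factors, robust quasi-likelihood F test), and p-values were Benjamini-Hochberg adjusted over all 26804 rows. A row was called at an adjusted p under 0.05, and SE is the log2 fold change over the square root of F. CPM were of the effective library size. The script was tested on simulated data. No library repeated another of its group, since the chi-square per degree of freedom was at least 6.66 between any pair within a group. Pairs from different groups were not compared in this way. One row of the table names no human gene, holds 40 counts over 18 libraries and was left out.

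Same-numbered polysome and total libraries of a line deviated together over the rows (r = 0.200 to 0.673 in 9 of 9 pairs). Yet YTHDF1-ADAR polysome 1 lay closer to total 2 (0.286) than to total 1 (0.248). YTHDF2-ADAR polysome 3 lay closer to total 1 (0.217) than to total 3 (0.200). YTHDF3-ADAR polysome 2 lay closer to total 3 (0.509) than to total 2 (0.357). Over the mitochondrial rows alone, same-numbered r ran from -0.105 to 0.706. The numbers were taken to pair the fractions, but this pairing is unsure. The replicate block is given for polysome against total RNA where it changed a call. Across lines the numbers were not taken to pair libraries. Alternatives were another scaling (DESeq2 1.42.0 size factors, none, or TMM without mitochondrial rows), no filter, the block, a fit of the compared groups only, DESeq2's Wald test and leaving out each library. Added after the data were seen were fits without YTHDF3-ADAR total 1 and polysome 3, without that line's libraries numbered 1, and with nuclear copies added to their parents. The mitochondrial rows and the lists of nuclear factors and copies were chosen with earlier results of these data known. All mitochondrial rows could be named, with the mRNAs and rRNAs in full.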

Additional observations from a re-analysis of the deposited data

How the results depend on the processing

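Of 336 counts of called mitochondrial rows under alternatives, 313 equalled or stayed within 1.5 times the reported count, 23 did not, and no called row changed sign. The 313 include counts that were 0 and stayed 0. These came from the differences of the polysome change and from YTHDF2-ADAR against YTHDF1-ADAR cells. The share of all tested rows called was not set beside these counts. A fit of the compared groups only called 13 rows for polysome against total RNA in YTHDF3-ADAR cells, 8 and 14 for YTHDF3-ADAR total RNA against YTHDF1-ADAR and YTHDF2-ADAR, and 11 and 11 for the same comparisons on polysomes. Without the filter on low counts the polysome comparisons gave 12 and 11. DESeq2 called 1 row where the polysome change of YTHDF3-ADAR was set against YTHDF2-ADAR. Without YTHDF3-ADAR total 1 and polysome 3, picked for their values over these rows, the differences from YTHDF1-ADAR and YTHDF2-ADAR held 3 and 2 rows, and without the libraries numbered 1 the difference from YTHDF1-ADAR held 1. With the replicate block 3 rows, MT-TN, MT-TA and MT-TC, were called between YTHDF2-ADAR and YTHDF1-ADAR total RNA, but across lines only 4 of 18 same-numbered pairs correlated above 0.1 (-0.364 to 0.517), so these libraries share only a number. The median of the rRNAs on YTHDF3-ADAR polysomes, not called, changed sign against YTHDF1-ADAR and YTHDF2-ADAR, to 0.0030 and 0.030 without the libraries numbered 1. The causes were not tested.

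Leaving out 1 library gave 27 to 37, 29 to 36 and 31 to 36 called rows for polysome against total RNA in YTHDF3-ADAR, YTHDF2-ADAR and YTHDF1-ADAR cells. It gave 18 to 34 and 13 to 33 for YTHDF3-ADAR total RNA against YTHDF1-ADAR and YTHDF2-ADAR, and 10 to 30 and 10 to 29 on polysomes. The rRNA medians on YTHDF3-ADAR polysomes ran from -1.42 to 0.066 against YTHDF1-ADAR and from -1.40 to 0.086 against YTHDF2-ADAR. The difference of the polysome change between YTHDF3-ADAR and YTHDF1-ADAR held 0 to 1. Without normalization factors the median of all rows on polysomes moved to 0.25, 0.40 and 0.46 in YTHDF3-ADAR, YTHDF2-ADAR and YTHDF1-ADAR cells, and that of the mitochondrial mRNAs to -2.03, -1.93 and -1.90. Depth limited few rows, the smallest value being 7 counts of MT-TV, and total amounts of RNA were not measured.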
